A study of Mus musculus with 4 samples.

Results

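Genes of the insulin-like growth factor (IGF) system were followed in C2C12 myoblasts: the ligand gene Igf1, the receptor genes Igf1r and Igf2r, and the binding protein genes Igfbp2, Igfbp3, Igfbp4, Igfbp5, Igfbp6 and Igfbp7. These 9 genes were taken by name from the 56748 gene IDs counted in each library. All 9 had at least 1 read in 1 library, and 5 of them (Igf1r, Igf2r, Igfbp2, Igfbp4 and Igfbp6) had enough reads to enter the test across genes. The comparison asked which of them changed in level when Hnrnpl, the gene of the RNA-binding protein hnRNP L, was knocked down.

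C2C12 is an established mouse myoblast line, here with a wild-type genotype and grown in medium with serum. The cells carried either a scrambled shRNA or a cocktail of shRNAs against Hnrnpl, on plasmids that also expressed eGFP, and were selected with puromycin. Native RNA was read molecule by molecule on a nanopore instrument from 2 scrambled and 2 Hnrnpl knockdown libraries, of which batch 1 and batch 2 each held 1 of either kind. Each group came from cells selected once and sampled again at another passage, so p-values measure the spread between passages and not between independently made lines, and a property of one selected line cannot be told apart from the knockdown.

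IGF1 and IGF2 are secreted growth factors that signal through the IGF1 receptor, a receptor tyrosine kinase upstream of the PI3K, AKT and mTOR arm and of the RAS and MAPK arm. The IGF2 receptor binds IGF2 and carries it to lysosomes without such signalling. The binding proteins hold the ligands outside the cell and can limit or prolong their action, and in muscle cells the system is known for its part in both proliferation and differentiation.

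The libraries held between 1229424 and 1676911 reads counted to genes, which were 56.5% to 57.8% of all reads in the tables. In the fit across all genes, 8670 genes were tested, and 5.55% of them were called, 2.33% as higher and 3.22% as lower in the knockdown. Calls needed an adjusted p below 0.05, a log2 fold change beyond 0.5 in either direction and more than 10 normalized counts on average. Hnrnpl itself had 358 and 656 reads in the scrambled libraries and 242 and 258 in the knockdown libraries, with a log2 fold change of -0.78 ± 0.18 (SE) and an adjusted p of 0.0112 by edgeR with Benjamini-Hochberg adjustment. Without scrambled replicate 2 that change was -0.47 (adjusted p 0.164), and without knockdown replicate 1 it was -0.63 (adjusted p 0.283), both by the same edgeR test, and Hnrnpl had an adjusted p under 0.05 in 13 of 17 alternative settings. Wherever 1 library is left out, its group keeps a single library, which is assumed to vary as the other group does. Of the myoblast markers, Vim, Des and Myf5 were well covered in all 4 libraries. Des, Cdh15 and Ncam1 were called lower in the knockdown, as given below, and Vim and Myf5 were not called. Myod1, which defines the lineage, had 1 read in a scrambled library and none elsewhere.

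The level of the 9 genes in the scrambled cells spanned a wide range when set per transcript length, as RPKM, that is, CPM (a gene's counted reads scaled to the usual common library size) divided by the length of the canonical transcript in kilobases (n = 2). Igfbp6, which encodes a binding protein with a preference for IGF2, was highest at 330 ± 53.2 (SD). Igfbp2, whose protein binds both ligands, followed at 119 ± 20.5. The 2 libraries of the one gene did not overlap those of the other.

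The other 7 genes lay far below. Igfbp4 stood at 3.17 ± 1.63 RPKM, Igf1r at 1.54 ± 0.128 and Igf2r at 1.52 ± 0.358. The order of these 3 genes depended on the scale: in CPM, with no division by length, Igf1r at 18 and 20.3 lay above Igf2r at 15.9 and 11.3 and above Igfbp4 at 16.6 and 7.75 in both scrambled libraries. A direct RNA read stands for about 1 molecule, so the division lowers the level of genes with long transcripts. Igfbp7 stood at 0.505 ± 0.24 and Igfbp5 at 0.219 ± 0.0293. Igfbp3 and Igf1 rested on 1 read each. In the knockdown cells the order of the first 2 genes was the same, with Igfbp6 at 366 ± 55.8 and Igfbp2 at 38.1 ± 6.29, and RPKM was 2.44 ± 0.592 for Igf1r, 1.56 ± 0.366 for Igf2r and 1.2 ± 0.095 for Igfbp4. Igf1r, at 35.6 and 25.2 CPM, was above the other two in CPM as well.

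**Figure D1:**
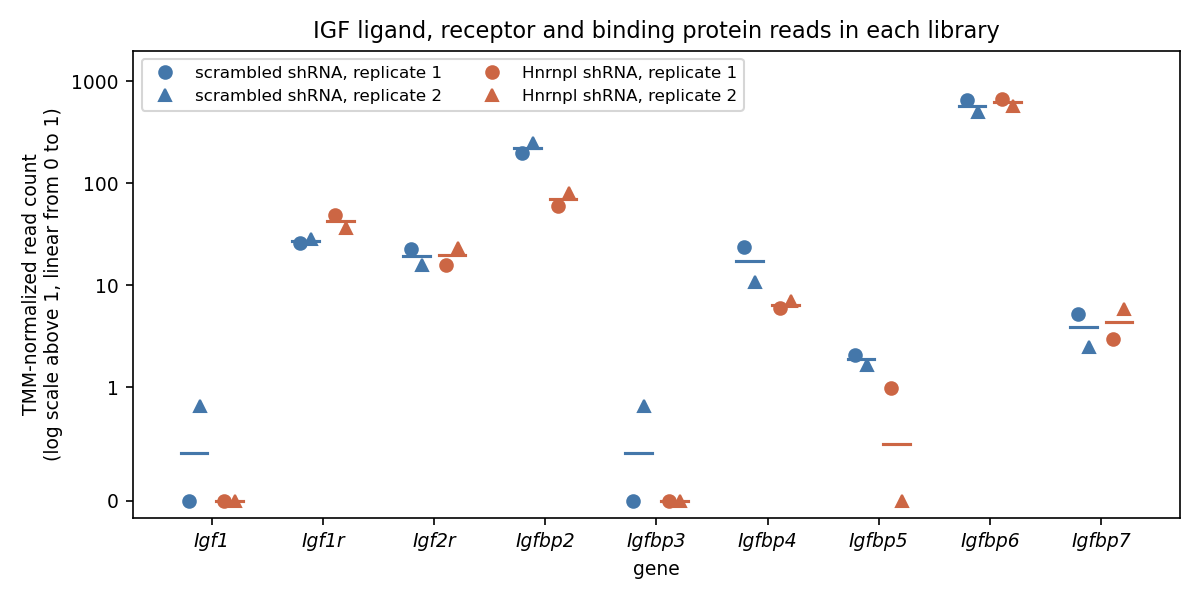
TMM-normalized read count (vertical axis, log scale above 1) of each gene in the 2 scrambled and 2 Hnrnpl shRNA libraries, with a bar at the group mean. The Igfbp2 values of 200 and 248 in the scrambled libraries lie above those of 60.8 and 80.6 in the knockdown libraries, whereas the Igfbp6 and Igf2r values of the groups overlap.

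Igf1, the ligand gene, had 1 read in scrambled replicate 2 and 0 in the other 3 libraries. With 3 counts taken as its upper limit, a count of 0 allows up to 2.16 CPM in scrambled replicate 1. The same limit is 2.18 in knockdown replicate 1 and 2.44 in knockdown replicate 2. An exact 95% interval for a count of 0 reaches slightly higher, to 3.69 counts. A difference was therefore not detectable at this depth. Igf2, the other ligand gene, was listed at 0 in all 4 libraries. That zero carries little weight, since 65.5% of its exon bases and all of the last 300 bases of the gene lie in exons of other genes listed in the tables, and a read in such a stretch may have been set aside as ambiguous.

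Igf1r, the signalling receptor gene (GRCm39 chr7:67601518-67883416, plus strand), had 25 and 34 reads in the scrambled libraries and 49 and 31 in the knockdown libraries. After normalization these were 26.2 and 28.6 against 48.8 and 36.2, so that both knockdown libraries lay above both scrambled ones. The log2 fold change was 0.64 ± 0.28 (SE, 95% interval 0.05 to 1.23), with an unadjusted p of 0.0355 and an adjusted p of 0.192 by edgeR's quasi-likelihood test with Benjamini-Hochberg adjustment. Igf1r did not pass the test, and its adjusted p ran from 0.163 to 0.996 over the alternative settings. Its log2 fold change was 0.39 without knockdown replicate 1 and 0.83 without knockdown replicate 2.

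Within batch 1 the log2 ratio of Igf1r, knockdown over scrambled, was 0.90, and within batch 2 it was 0.34. The batches had the same sign but different size. Of the exon bases of Igf1r, 6.31% are shared with another listed gene, none of them in the last 300 bases of the gene.

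Igf2r, the scavenging receptor gene (GRCm39 chr17:12901293-12988614, minus strand), had 22 and 19 reads in the scrambled libraries and 16 and 20 in the knockdown libraries. The groups overlapped, and the log2 fold change was 0.02 ± 0.37 (SE), with a 95% interval from -0.76 to 0.79 and an adjusted p of 0.988 by edgeR with Benjamini-Hochberg adjustment. The interval leaves room for changes to either side, and the batches pointed in opposite directions, at -0.53 in batch 1 and 0.55 in batch 2.

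The ratio of Igf1r to Igf2r reads was 1.14 and 1.79 in the scrambled libraries and 3.06 and 1.55 in the knockdown libraries. These ratios overlapped between the groups. The ratio of Igf1r to Insr reads was 0.893 and 1.48 in the scrambled and 2.88 and 1.72 in the knockdown libraries, which did not overlap, and no test was made of either ratio. Insr, the insulin receptor gene and closest relative of Igf1r, had 28 and 23 reads against 17 and 18, with a log2 fold change of -0.34 ± 0.35 (SE) and an adjusted p of 0.62 by edgeR with Benjamini-Hochberg adjustment, and it was not called.

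Igfbp2 (ENSMUSG00000039323, GRCm39 chr1:72863606-72891634, plus strand) was the 1 gene of the 9 that was called. It had 191 and 295 reads in the scrambled libraries and 61 and 69 in the knockdown libraries. After normalization these were 200 and 248 against 60.8 and 80.6, and the groups were far apart. The group means were 224 ± 34.1 and 70.7 ± 14 (SD, n = 2).

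Igfbp2 fell by 1.68 on the log2 scale with a standard error of 0.19 (95% interval -2.07 to -1.29), which is 3.2-fold lower with an interval of 2.44 to 4.2. The adjusted p was 1.94e-05 by edgeR's quasi-likelihood test with Benjamini-Hochberg adjustment. The batches gave nearly the same size, -1.72 in batch 1 and -1.62 in batch 2. In bulk RNA, fewer cells with the transcript and less transcript per cell cannot be told apart. Without knockdown replicate 1 the log2 fold change of Igfbp2 was -1.48 and its adjusted p by edgeR was 0.0614, above the threshold, and without any other single library it was called.

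Igfbp4 (GRCm39 chr11:98932064-98945218, plus strand), whose protein is known mainly as an inhibitor of IGF action, had 23 and 13 reads in the scrambled libraries and 6 in each knockdown library. After normalization these were 24.1 and 10.9 against 5.98 and 7.01, with no overlap but a wide gap between the scrambled libraries. The log2 fold change was -1.38 ± 0.50 (SE, 95% interval -2.43 to -0.33) and the adjusted p was 0.111 by edgeR with Benjamini-Hochberg adjustment, so Igfbp4 was not called. Within batches the log2 ratio was -2.01 and -0.64. Without scrambled replicate 2 its log2 fold change was -1.88 with an adjusted p of 0.0186, and it was then called, and without scrambled replicate 1 the change was -0.75 with an adjusted p of 0.568.

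Igfbp6 (GRCm39 chr15:102052697-102057953, plus strand), the most abundant of the 9, had 622 and 598 reads in the scrambled libraries and 680 and 490 in the knockdown libraries. Normalized counts were 651 and 503 against 677 and 573, and the groups overlapped. The log2 fold change was 0.12 ± 0.15 (SE) with a 95% interval from -0.20 to 0.44 and an adjusted p of 0.701 by edgeR with Benjamini-Hochberg adjustment. This was the narrowest interval among the 5 tested genes, and it spans folds of 0.872 to 1.35. The sign of the Igfbp6 value turned when scrambled replicate 2 or knockdown replicate 1 was left out.

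The remaining binding protein genes were too low to test. Igfbp3, whose protein is the main carrier of IGFs in serum, had 1 read in scrambled replicate 2 and none in the other libraries. Igfbp5, which is known to rise as myoblasts differentiate, had 2 reads in each scrambled library, 1 in knockdown replicate 1 and 0 in knockdown replicate 2. Igfbp7, a relative with low affinity for IGFs, had 5 and 3 reads in the scrambled libraries and 3 and 5 in the knockdown libraries, and 129 of the last 300 bases of its gene are shared with exons of another listed gene. No difference in these 3 genes was detectable at this depth.

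**Figure D2:**
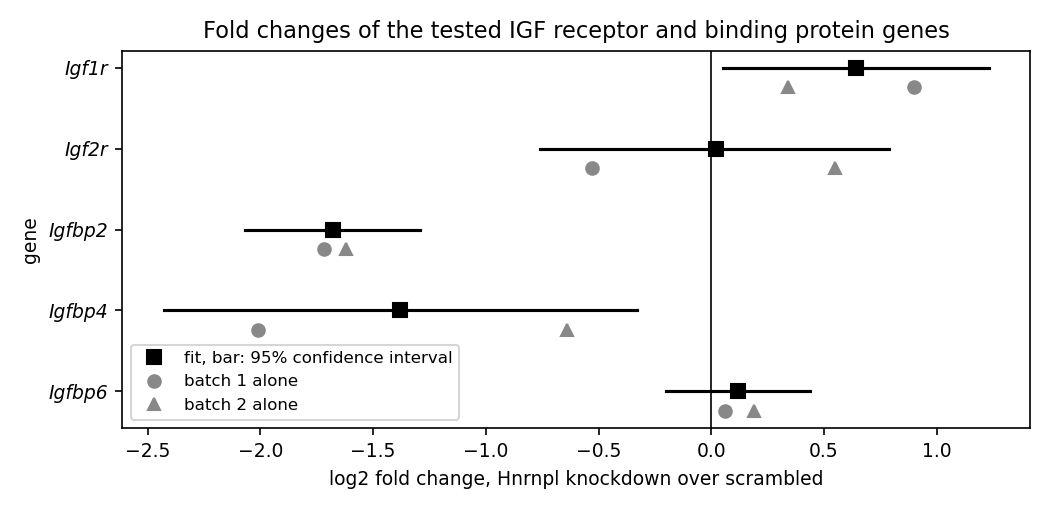
Log2 fold change of the 5 tested genes, knockdown over scrambled (horizontal axis), with squares and bars for the edgeR fit and its 95% interval and grey symbols for each batch alone. The Igfbp2 interval of -2.07 to -1.29 lies wholly below 0 with the batches close together, while the batches of Igf2r fall on either side of 0.

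Of the 5 tested genes, 1 was called and it was lower, against 5.55% called among all genes tested. For 3 of the 5 (Igf1r, Igfbp2 and Igfbp4) both libraries of one group lay on the same side of both of the other, which was so for 52.4% of all genes tested. The median log2 fold change of the 5 was 0.02, beside 0 over all genes tested.

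The make-up of the binding protein reads was set as shares of their sum, most of which is Igfbp6. Igfbp2 was 22.7% of all Igfbp reads in scrambled replicate 1 (exact 95% binomial interval 19.9 to 25.6, 843 reads) and 32.3% in scrambled replicate 2 (29.3 to 35.5, 912 reads). In the knockdown libraries it was 8.12% (6.27 to 10.3, 751 reads) and 12.1% (9.54 to 15.1, 570 reads). Neither interval of the knockdown libraries reached those of the scrambled ones. These intervals cover counting error only.

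The mean share of Igfbp2 was 27.5% ± 6.85 in the scrambled and 10.1% ± 2.82 in the knockdown libraries (SD, n = 2), a difference of -17.4 percentage points. The share of Igfbp6 moved the other way, from 69.7% ± 5.81 to 88.3% ± 3.24. Shares of one total are not independent of each other, and with 2 libraries a group no permutation test could pass the threshold, so they are given as a description. With Igfbp6 left out of the sum the difference was -4.1 points, with Igfbp2 at 86.4% and 93.9% in the scrambled and 85.9% and 86.2% in the knockdown libraries and overlapping intervals. Per Igfbp6 read there were 0.307 and 0.493 Igfbp2 reads in the scrambled libraries and 0.0897 and 0.141 in the knockdown libraries.

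**Figure D3:**
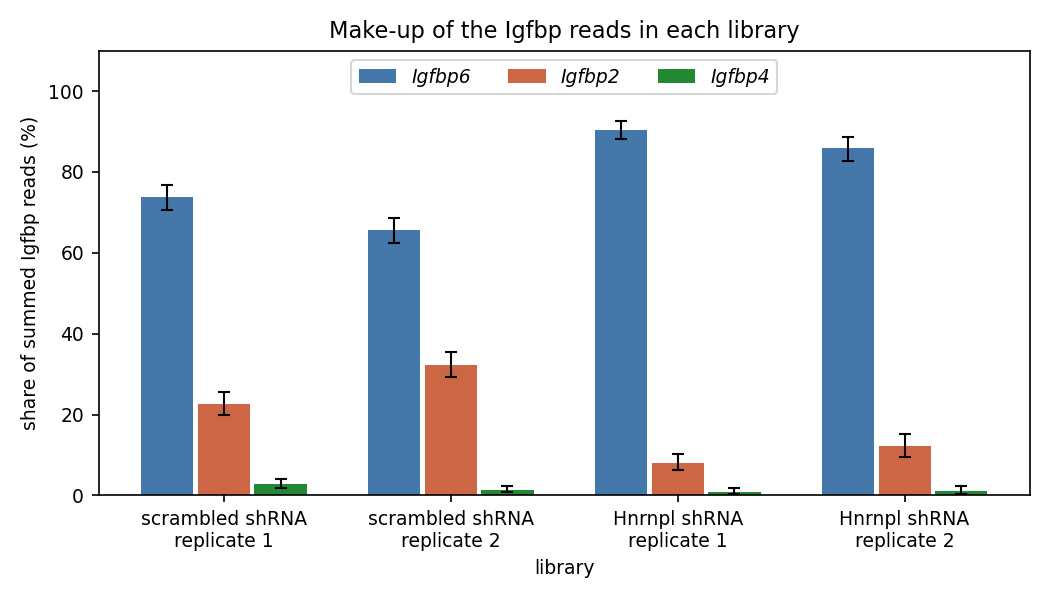
Share of summed Igfbp reads (vertical axis, percent) taken by Igfbp6, Igfbp2 and Igfbp4 in each library, with exact 95% binomial intervals. Igfbp2 takes 22.7% and 32.3% in the scrambled libraries and 8.12% and 12.1% in the knockdown libraries.

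Igfbp2 and Igfbp5 are neighbours on chromosome 1, on opposite strands with their 3′ ends 5457 bases apart, but Igfbp5 was too low to set beside it. Among tested genes, the nearest before Igfbp2 was Rpl37a, a ribosomal protein gene 107513 bases away, with 531 and 598 reads against 501 and 491 and a log2 fold change of 0.02 ± 0.14 (SE). The nearest after it was Tns1, a focal adhesion gene 1057756 bases away, at -0.50 ± 0.18 with an adjusted p of 0.103 by edgeR with Benjamini-Hochberg adjustment. Neither was called. Genes on chromosome 1 had a median log2 fold change of 0.19, and with the chromosome medians removed Igfbp2 stood at -1.87.

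Among the genes whose values over the 4 libraries lay closest to those of Igfbp2, by Euclidean distance of centred log2 counts among 4501 genes, were Tubb2b, Tlx2, R3hcc1 and Tpm1. Their distances ran from 0.27 to 0.35, and the median over the genes compared was 1.71. They were picked as the closest, so distances below the median follow from the choice. Tubb2b, a beta-tubulin gene, had 100 and 141 reads against 35 and 31. Tpm1, a tropomyosin gene, had 205 and 255 against 49 and 72. With 4 libraries such likeness rests on few points.

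hnRNP L is known to bind CA-rich RNA, so runs of the CA dinucleotide were located on the sense strand of the canonical transcripts (GENCODE vM39, GRCm39). The longest run of the receptor genes is set beside those of Igfbp2, which was called, and Igfbp6, the most abundant, which was not. That run is in capitals, and the Igfbp6 stretch holds another of equal length in lower case. Where runs of a transcript tie in length the first is shown, so the place of a run as short as in Igfbp2 and Igfbp6 carries little weight.
Igf1r: CACACACACACACACACACACACACACACA
Igf2r: tttgtgagggCACACACACAtgcacaggtc
Igfbp2: cactaccgttgccCACAagccaacatgctg
Igfbp6: cccgctctcgtgaCACAaaccacagagacc
The Igf1r stretch lies in the 3′ UTR in exon 21 at chr7:67877985-67878014 on the plus strand and is part of a run of 21 CA units. The Igf2r stretch is in the 3′ UTR in exon 48 at chr17:12901972-12902001 on the minus strand. The Igfbp2 stretch is in exon 1, with its run in the 5′ UTR, at chr1:72863715-72863744 on the plus strand, and the Igfbp6 stretch is coding sequence in exon 2 at chr15:102056319-102056348 on the plus strand.

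A run of 4 or more CA units (CACACACA) was present in the transcripts of Igf1, Igf1r, Igf2r, Igfbp3 and Igfbp7 and in those of neither Igfbp2 nor Igfbp4, Igfbp5 and Igfbp6. It was held by 18.7% of 21770 protein-coding canonical transcripts, which differ in length, and by 20.1% of the 8231 tested. Over whole genes, introns included, Igfbp2 and Igfbp6 each held 1 run of 8 or more CA units, of 13 units in an intron. Igf1r held 19 such runs and Igf2r 3, and 57.2% of tested protein-coding genes held at least 1. These genes differ in length, so the counts do not compare them evenly. Igf1r spans 281899 bases, Igf2r 87322, Igfbp2 28029 and Igfbp6 5257, beside a median of 27564 over tested protein-coding genes. Igfbp4 held none. These matches describe letters in the reference and not sites of binding.

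The rest of the pathway was read from lists of 74 further genes, of which 65 had reads and 45 were tested. Of these 45, 2 were called, both lower, against 5.55% of all genes tested. Before adjustment, 9 of the 45 passed the 0.05 threshold in edgeR, against 1894 of 8670 genes (21.8%), so that neither count stands out from the background. Their median log2 fold change was -0.03.

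Among other ligands, receptors and binding proteins, 6 of 9 genes were at 0 in all libraries, and neither of the 2 tested, Insr and M6pr, was called; 57.1% of the exon bases of M6pr are shared with other listed genes. Among IGFBP proteases and their inhibitors, 3 of 10 were tested and none was called: edgeR gave 0 with an unadjusted p under 0.05. The receptor adaptors had 8 of 13 tested and 0 called, with 1 at an unadjusted p under 0.05. Igf2bp2, of the IGF2 mRNA binding proteins, was the 1 tested of 3, at 0.21 ± 0.27 (SE).

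In the PI3K, AKT and mTOR arm, 22 of 27 genes were tested and 1 was called. Rictor, a core subunit of mTOR complex 2, had 55 and 53 reads in the scrambled libraries and 25 and 24 in the knockdown libraries, which did not overlap. Its log2 fold change was -0.94 ± 0.28 (SE) and its adjusted p of 0.04998 by edgeR with Benjamini-Hochberg adjustment lay at the threshold. Rictor had an adjusted p under 0.05 in 6 of 17 alternative settings, and without knockdown replicate 1 it was -0.85 with an adjusted p of 0.286. Leaving out scrambled replicate 1 gave an adjusted p of 0.232 and leaving out knockdown replicate 2 gave 0.101, both by edgeR.

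In the RAS and MAPK arm, 9 of 12 genes were tested and 1 was called. Map2k1, which encodes the kinase MEK1, had 187 and 244 reads in the scrambled libraries and 119 and 104 in the knockdown libraries. It fell by 0.74 ± 0.16 (SE) on the log2 scale with an adjusted p of 0.00798 by edgeR with Benjamini-Hochberg adjustment, and within batches by 0.72 and 0.76. Genes on its chromosome 9 had a median of -0.37, and with chromosome medians removed Map2k1 stood at -0.38 with an adjusted p of 0.265 and neither it nor Rictor was called. Without knockdown replicate 1 Map2k1 was at -0.73 with an adjusted p of 0.156 by edgeR, and it was under 0.05 in 13 of 17 alternatives. Of the exon bases of Map2k1, 31.4% are shared with another listed gene, none of them in the last 300 bases.

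**Figure D4:**
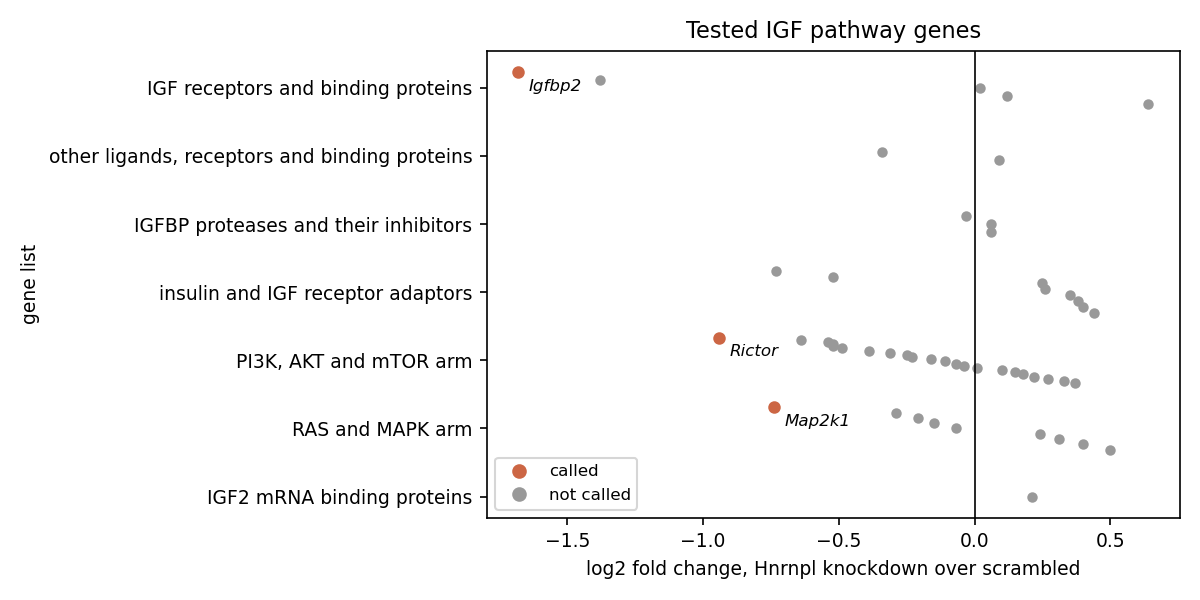
Log2 fold change (horizontal axis, knockdown over scrambled) of each tested gene of the IGF system and its pathway lists, markers of cell state not included, with called genes in orange and named. Among the genes plotted, Igfbp2 at -1.68 lies farthest from 0, and Rictor at -0.94 and Map2k1 at -0.74 are the only others called.

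Markers of cell state were read beside these genes. Of 18 muscle differentiation markers, 11 were at 0 in all libraries, Myog among them, and their summed level was 20.3 to 23.8 CPM in the scrambled and 13.1 to 24.4 CPM in the knockdown libraries. The 2 tested, Acta1 and Tnnc1, were not called by edgeR, and 0 had an unadjusted p under 0.05. Markers of other cell types summed to 2.16 to 3.58 CPM in the scrambled and 3.25 to 3.64 CPM in the knockdown libraries.

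Of 7 myoblast markers, 5 were tested and 3 were called, all lower in the knockdown, against 3.22% called lower among all genes tested. Cdh15, encoding M-cadherin, changed by -2.55 ± 0.24 (SE), Ncam1, encoding a cell adhesion molecule, by -1.47 ± 0.27 and Des, encoding desmin, by -0.56 ± 0.15, while Myf5 at -0.16 ± 0.16 and Vim at -0.15 ± 0.16 were not called. Without knockdown replicate 1 the adjusted p by edgeR was 0.0179 for Cdh15, 0.142 for Ncam1 and 0.196 for Des, and Des was also above the threshold without knockdown replicate 2 (0.119) and without scrambled replicate 2 (0.266). Over 17 alternatives, Cdh15 had an adjusted p under 0.05 in 17, Ncam1 in 14 and Des in 11, and with batch as a block Des was at -0.55 with an adjusted p of 0.0526 by edgeR. The summed level of the list was 15100 and 15800 CPM in the scrambled and 13500 and 14500 CPM in the knockdown libraries, nearly all of it Vim (14500 and 15300, then 13100 and 14200 CPM), so that the sum does not reflect the other markers. Cdh15 and Ncam1 moved in the same direction as Igfbp2, and their part in the Igfbp2 result was not tested.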

How the data were processed

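Total RNA of 4 libraries was sequenced by nanopore direct RNA sequencing. Per the labels, the authors aligned reads with minimap2 2.17 to GRCm39 and deposited raw counts per gene made with HTSeq 0.9.1; the annotation release and the use of strand are not given in the sources used here. The deposited counts are whole reads with no normalization, and 1 read stands for about 1 molecule. Rows that name no gene held 42.2% to 43.5% of reads and were left out.

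Groups came from the labels. Knockdown was compared with scrambled by the quasi-likelihood test of edgeR 4.0.16 (R 4.3.3) with TMM factors, filterByExpr and Benjamini-Hochberg adjustment over 8670 genes, with group as the only term. Calls needed an adjusted p below 0.05, a log2 fold change beyond 0.5 in either direction and more than 10 normalized counts on average. The fitting code was tested on simulated data drawn with the same spread for every gene. That checks the code and not the calls made in these libraries. DESeq2 1.42.0, other scalings and filters, a batch block and leaving out each library were the alternatives. Libraries of one group differed by more than sampling noise (chi-square per gene 2.54 and 2.79) and were kept apart. Libraries with the same number share a batch per the labels, and the deviations of those numbered 1 had a correlation of 0.00258 over 4501 genes.

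Symbols, positions and transcripts came from GENCODE vM39, in which 56017 of 56748 gene IDs were found. The genes and lists were chosen with earlier results of these data known. Named were all 9 genes, other listed genes with an adjusted p under 0.05, Igf2, Insr and Hnrnpl, and, for a called gene of the 9, the 5 genes with a mean normalized count of at least 50 most like it (pseudocount 1) and its tested neighbours; 1 of these is not reported here. Acta1, Tnnc1, M6pr, Igf2bp2, Myod1, Myf5, Vim and Myog were named as list members.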

Additional observations from a re-analysis of the deposited data

How the results depend on the processing

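Igfbp2 kept its direction in 17 of 17 alternatives, with log2 fold changes from -1.89 to -1.48 and adjusted p from 2.4e-15 to 0.0614, and was past the threshold in 16. The count of called genes among the 9 was 1 in all alternatives but those that left out a library, which gave 0 to 2: 0 without knockdown replicate 1 and 2 without scrambled replicate 2. With the replicate block, which pairs libraries by batch, the count stayed at 1 and Igfbp2 stood at -1.67, while Des lost its call (adjusted p 0.0526); the block changed no other call among the genes named from the lists. Igf2r turned to -0.18 with chromosome medians removed, and ranged from -0.27 to 0.28 with a library left out (-0.25 without scrambled replicate 2). Igfbp6 ranged from -0.06 to 0.31 with a library left out, with -0.01 without knockdown replicate 1. Called pathway genes numbered 2; the count was 1 with DESeq2's local fits, RLE factors, upper quartile factors or the mitochondrially encoded genes and Rn18s left out together, 0 with DESeq2's parametric fits, chromosome medians removed or a log2 threshold of 1, and 0 to 2 with a library left out. With DESeq2's parametric fits Hnrnpl, Ncam1, Des and Map2k1 were above the threshold, with adjusted p from 0.0567 to 0.234. Rictor lay farther above it, at 0.621 by the Wald test and 0.69 by the likelihood-ratio test. With DESeq2's local fits Rictor was at 0.263 and 0.277 by the same tests. The cause was not tested. The Igfbp2 share difference was -4.1 points in place of -17.4 when Igfbp6 was left out of the total. Its size therefore depended on whether Igfbp6 was part of the total. Depth limits Igf1, Igfbp3, Igfbp5 and Igfbp7, whose counts were 5 or fewer in each library.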

Other observations

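Pappa, which encodes a protease known to cut IGFBP4, had 5 and 9 reads in the scrambled libraries and 1 and 0 in the knockdown libraries. It was singled out after its values were seen and was too low to be tested.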
